A study of Homo sapiens with 28 samples.

Results

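The cell cycle genes described here are 45 of the 23533 genes in the RNA tables, listed by name and found by gene symbol. They fall into 6 genes of the G1/S transition, 15 of DNA replication, 21 of mitosis and 3 inhibitors of cyclin-dependent kinases. They were measured in EPC2 cells, a telomerase-immortalised line of human esophageal epithelial cells, which stand for the epithelium alone, without the immune cells of the tissue. The cells were plated densely in a serum-free keratinocyte medium 1 day before treatment. They were left untreated or received interleukin-13 (IL-13, 100 ng/ml), vitamin D (100 nM) or both for 6 h. RNA was sequenced in 3 samples per group, 12 in all, and 16 chromatin libraries with no replicate covered 3 histone marks in the 4 groups, STAT6 with and without IL-13, and the vitamin D receptor (VDR) with and without vitamin D. Nothing in the labels tells whether the 3 RNA samples within a group were separate cultures, so the authors' p-values measure the spread between those samples, which may be technical.

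Cells enter division when D-type and E-type cyclins activate their kinases, which release E2F transcription factors to switch on the genes of DNA replication. A later wave, which includes the mitotic cyclins, CDK1 and FOXM1, builds the spindle and separates the chromosomes. Inhibitors such as CDKN1A (p21), CDKN1B (p27) and CDKN2B (p15) hold the kinases in check, and in squamous epithelium division is a property of the basal and parabasal layers. IL-13 is the type 2 cytokine that acts on esophageal epithelium through STAT6, and vitamin D acts through VDR, a nuclear receptor that binds DNA.

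The 2 waves are known to use different promoter letters, and the members' promoters carried them unevenly. RefSeq promoter windows of 300 bases (250 before the start and 50 after it, build GRCh38.p14) were matched to 36 of the 45 members. The unmatched ones were CCND1, CCNE2, CDK2, MCM4, MCM5, AURKA, UBE2C, BIRC5 and FOXM1. E2F letters (TTCCCGC, the variant TTGGCGC, the variant TTCGCGC or the variant TTGCCGC, on either strand) stood in at least 1 window of 13 of 13 replication genes and 4 of 17 mitosis genes, against 15.3% of the 27305 genes with a promoter in the table. The cell cycle homology region (TTTGAA or TTCGAA, either strand), an element of late cell cycle promoters, stood in 12 of 17 mitosis genes and 2 of 13 replication genes, against 19.5% of all genes. The CCAAT box (either strand) stood in 28 of the 36 members, against 39.7% of all genes. Some genes have more than 1 window. Counted by window, E2F letters stood in 75% of the 20 replication windows and 12.97% of the 35116 windows of all genes. A match is a string of letters and not a bound site, and matches of different motifs were counted separately, overlapping or not.

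**Figure D1:**
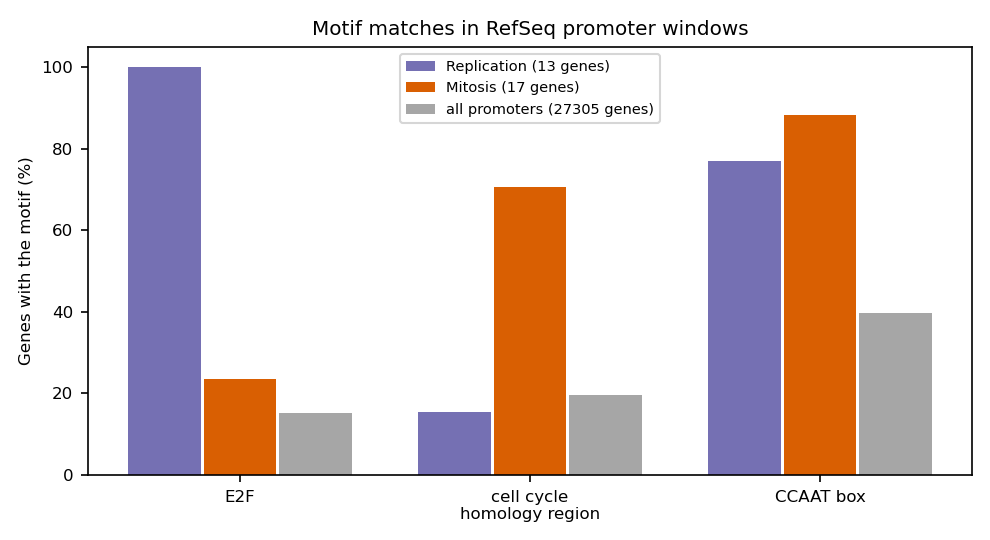
Bars show the percentage of genes with at least 1 match to each motif in their RefSeq promoter windows, for 13 replication genes, 17 mitosis genes and 27305 genes in all. The E2F bar is at 100% for replication genes, and the cell cycle homology region bar is higher for mitosis genes (70.6%) than for replication genes (15.4%).

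A few promoters show the contrast, each given as the 250 bases before the start site of 1 RefSeq window. E2F1, CDT1 and GINS2 are shown because they were among the members whose RNA fell most with IL-13, CDC20 because its RNA moved in opposite directions with the 2 agents, CCNB2 as a typical mitotic promoter, and CDKN2B because its RNA fell in every comparison. In E2F1 (chr20:33686386-33686635, minus strand), CDT1 (chr16:88803539-88803788, plus strand), GINS2 (chr16:85688955-85689204, minus strand) and CDKN2B (chr9:22009306-22009555, minus strand), capitals mark the E2F letters and the CCAAT box. In CDC20 (chr1:43358731-43358980, plus strand) and CCNB2 (chr15:59104896-59105145, plus strand), capitals mark the cell cycle homology region and the CCAAT box.
E2F1: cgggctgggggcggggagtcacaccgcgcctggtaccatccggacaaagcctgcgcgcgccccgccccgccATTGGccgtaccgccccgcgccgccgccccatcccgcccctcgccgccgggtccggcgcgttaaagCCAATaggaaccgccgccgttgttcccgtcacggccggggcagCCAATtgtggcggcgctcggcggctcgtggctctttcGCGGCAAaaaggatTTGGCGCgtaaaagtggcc
CDT1: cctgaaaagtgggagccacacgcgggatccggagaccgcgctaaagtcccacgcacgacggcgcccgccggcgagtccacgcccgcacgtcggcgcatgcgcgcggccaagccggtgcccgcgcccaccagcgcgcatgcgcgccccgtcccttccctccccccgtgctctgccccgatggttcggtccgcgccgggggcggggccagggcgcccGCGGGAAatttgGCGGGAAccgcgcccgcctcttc
GINS2: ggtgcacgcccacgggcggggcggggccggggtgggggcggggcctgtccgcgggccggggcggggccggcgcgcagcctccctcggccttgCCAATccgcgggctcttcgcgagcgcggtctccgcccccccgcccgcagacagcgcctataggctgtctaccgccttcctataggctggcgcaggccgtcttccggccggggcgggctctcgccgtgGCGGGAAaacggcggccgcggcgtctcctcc
CDC20: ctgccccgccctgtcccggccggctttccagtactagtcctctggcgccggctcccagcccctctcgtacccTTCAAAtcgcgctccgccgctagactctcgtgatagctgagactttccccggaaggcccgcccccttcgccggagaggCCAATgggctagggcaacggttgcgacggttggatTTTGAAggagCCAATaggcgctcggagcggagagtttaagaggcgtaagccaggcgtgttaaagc
CCNB2: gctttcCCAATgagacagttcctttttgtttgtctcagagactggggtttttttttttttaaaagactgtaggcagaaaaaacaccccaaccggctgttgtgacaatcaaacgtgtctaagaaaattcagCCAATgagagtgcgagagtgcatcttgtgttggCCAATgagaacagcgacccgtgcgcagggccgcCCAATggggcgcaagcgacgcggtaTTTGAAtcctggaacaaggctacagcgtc
CDKN2B: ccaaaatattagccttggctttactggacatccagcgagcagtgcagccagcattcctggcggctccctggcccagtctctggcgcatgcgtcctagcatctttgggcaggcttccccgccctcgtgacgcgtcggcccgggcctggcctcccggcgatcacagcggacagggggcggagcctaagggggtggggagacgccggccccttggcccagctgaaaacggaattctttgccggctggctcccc

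The E2F letters began 33 and 19 bases before the start in E2F1, 35 and 23 bases before it in CDT1 and 31 bases before it in GINS2. In CDC20 the cell cycle homology letters began 178 and 65 bases before the start, and in CCNB2 they began 29 bases before it, downstream of 4 CCAAT boxes. The CDKN2B window held none of the motifs searched. STAT6 letters (TTC and GAA with 4 bases between) stood in 7 of the 36 members, or 19.4%, against 7.80% of all genes, and the VDR direct repeat in 0 of 36, against 0.0842%.

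In untreated cells the 4 groups of genes sat at very different RNA levels, which are given as RPKM (a level per transcript length and sequencing depth), with 1 deposited value per group of 3 samples. The kinase inhibitors had the highest median, 42.8 RPKM, although CDKN1B alone was below several G1/S and replication genes, such as CCND1 and PCNA. CDKN1A stood at 362 RPKM, CDKN2B at 42.8 and CDKN1B at 12.1, all 3 above 10 RPKM in every group. Replication genes had a median of 4.46 RPKM and ranged from 0.171 (RRM2, the regulated subunit of ribonucleotide reductase) to 27.2 (PCNA, the sliding clamp of DNA polymerases). G1/S genes ranged from 0.222 (CCNE2, a cyclin E) to 28.6 (CCND1, cyclin D1).

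The mitosis genes were low throughout. Their median was 0.293 RPKM in untreated cells, and 16 of the 21 were under 1 RPKM. The highest was UBE2C, the ubiquitin-conjugating enzyme of the anaphase-promoting complex, at 1.46 RPKM. MKI67, the gene of the Ki-67 proliferation antigen, stood at 0.0453 RPKM in untreated cells, 0.0387 after IL-13, 0.0422 after vitamin D and 0.0351 after both. TOP2A, the topoisomerase that untangles sister chromatids, stood at 0.239, 0.244, 0.228 and 0.247 RPKM in the same order, and CDK1, the mitotic kinase, at 0.478, 0.525, 0.408 and 0.461. The 4 values of TOP2A differed little from each other, and those of MKI67 and CDK1 not much more. Over all 23533 genes, 52.2% were under 1 RPKM in untreated cells, against 46.7% of the members.

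**Figure D2:**
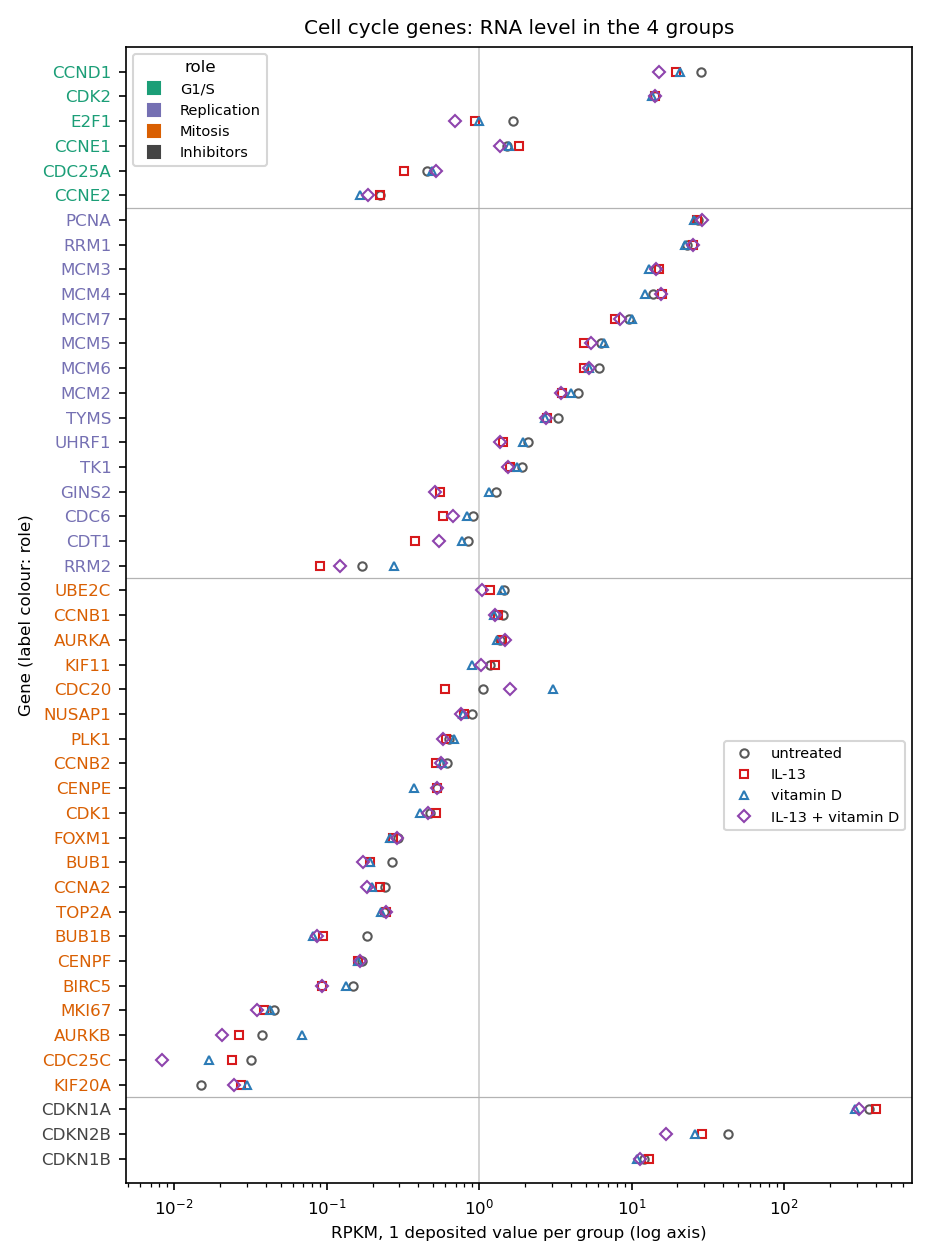
Each row is 1 gene and each symbol its deposited RPKM in 1 of the 4 groups, on a log axis, with genes grouped by role and ordered by the untreated level. The kinase inhibitors and PCNA, RRM1 and CCND1 lie above 10 RPKM, and most mitosis genes lie to the left of the line at 1 RPKM in every group.

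With IL-13, CCND1, E2F1 and 8 of the 15 replication genes fell, while most mitosis genes were not called. A gene is called here when its adjusted p in the authors' deposited table is under 0.05. Of the 43 members tested (CDC25C and AURKB, at under 0.1 RPKM, had no test), 13 were called lower and 2 higher with IL-13. Over all 15172 genes tested, 14% were called lower and 12.3% higher, so the lower calls among members were more frequent than the background and the higher calls were fewer. Their median log2 fold change was -0.14, against 0.00 for all genes. Replication genes made up most of the calls, with 8 of 15 lower, 1 higher and a median of -0.32. Of the other groups, 2 of 6 G1/S genes and 2 of 19 mitosis genes were called lower, and the inhibitors had 1 call in each direction.

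Among G1/S genes, CCND1 (hg19 chr11:69455873-69469242, plus strand) stood at 28.6 RPKM untreated and 19.5 with IL-13. Its log2 fold change in the authors' deposited table was -0.56 (derived SE 0.0389, adjusted p = 3.52e-45). E2F1 (hg19 chr20:32263292-32274210, minus strand), the activator of replication genes, went from 1.67 to 0.943 RPKM, with a log2 fold change of -0.74 (SE 0.126, adjusted p = 5.74e-08) in the authors' deposited table. Each SE was derived from the deposited fold change and p. Of the other 4 G1/S genes none was called: CDK2 stood at 14.2 RPKM in both groups, and CCNE1, CCNE2 and CDC25A had log2 fold changes of 0.19, 0.00 and -0.35 in the authors' deposited table.

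Among replication genes, those that load and start the helicase moved most. CDT1, the factor that loads the MCM helicase onto origins, went from 0.850 to 0.377 RPKM, with a log2 fold change of -0.92 (SE 0.163, adjusted p = 1.9e-07) in the authors' deposited table. GINS2, a subunit of the GINS complex that activates the helicase, went from 1.29 to 0.552 RPKM, a log2 fold change of -0.85 (SE 0.180, adjusted p = 1.95e-05) in the authors' deposited table. Genes of the same steps outside the members moved unevenly. GINS3 had 0.31, GINS1 -0.19, GINS4 -0.30, CDC45 0.89 and ORC1 -0.64 with IL-13 in the authors' deposited table. CDC6, the partner of CDT1 in loading, had -0.55 (adjusted p = 0.00157), and UHRF1, which couples replication to DNA methylation, had -0.51 (adjusted p = 2.44e-06) in the authors' deposited table. The helicase itself moved less and unevenly: of its 6 subunits, MCM2 (-0.36), MCM5 (-0.38), MCM6 (-0.32) and MCM7 (-0.32) were called lower, MCM4 (0.19) was called higher, and MCM3 (0.06) was not called in the authors' deposited table. MCM4 stood at 13.7 RPKM untreated and 15.9 with IL-13. The nucleotide enzymes RRM1, RRM2, TYMS and TK1 and the clamp PCNA were not called. Reads of MCM7 cannot be separated here from those of the overlapping AP4M1 and of the microRNAs in its introns, and reads of TYMS cannot be separated from those of the overlapping ENOSF1. The same limit holds for the other members that overlap another gene, which are CCNE2, PCNA, UHRF1, CCNA2, PLK1, KIF20A and FOXM1.

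Among mitosis genes, 2 were called lower with IL-13. CDC20, the activator of the anaphase-promoting complex, went from 1.06 to 0.596 RPKM, a log2 fold change of -0.62 (SE 0.174, adjusted p = 0.00232) in the authors' deposited table. BUB1B, a spindle checkpoint kinase that restrains CDC20, went from 0.183 to 0.0940 RPKM, with -0.49 (SE 0.195, adjusted p = 0.0479) in the authors' deposited table, close to the threshold. MKI67, TOP2A and CDK1 had log2 fold changes of -0.12, 0.00 and 0.08 in the authors' deposited table, each smaller than its SE of 0.195, 0.171 and 0.183. These SEs are on the scale of the deposited fold changes, which for some low genes were smaller in size than the RPKM ratios. They do not tell how precisely genes at such levels were measured. Among inhibitors, CDKN1A went from 362 to 402 RPKM (0.13, SE 0.0366, adjusted p = 0.00152) and CDKN2B from 42.8 to 29.1 RPKM (-0.57, SE 0.0417, adjusted p = 2.1e-40) in the authors' deposited table, while CDKN1B (0.07, adjusted p = 0.423) was not called.

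**Figure D3:**
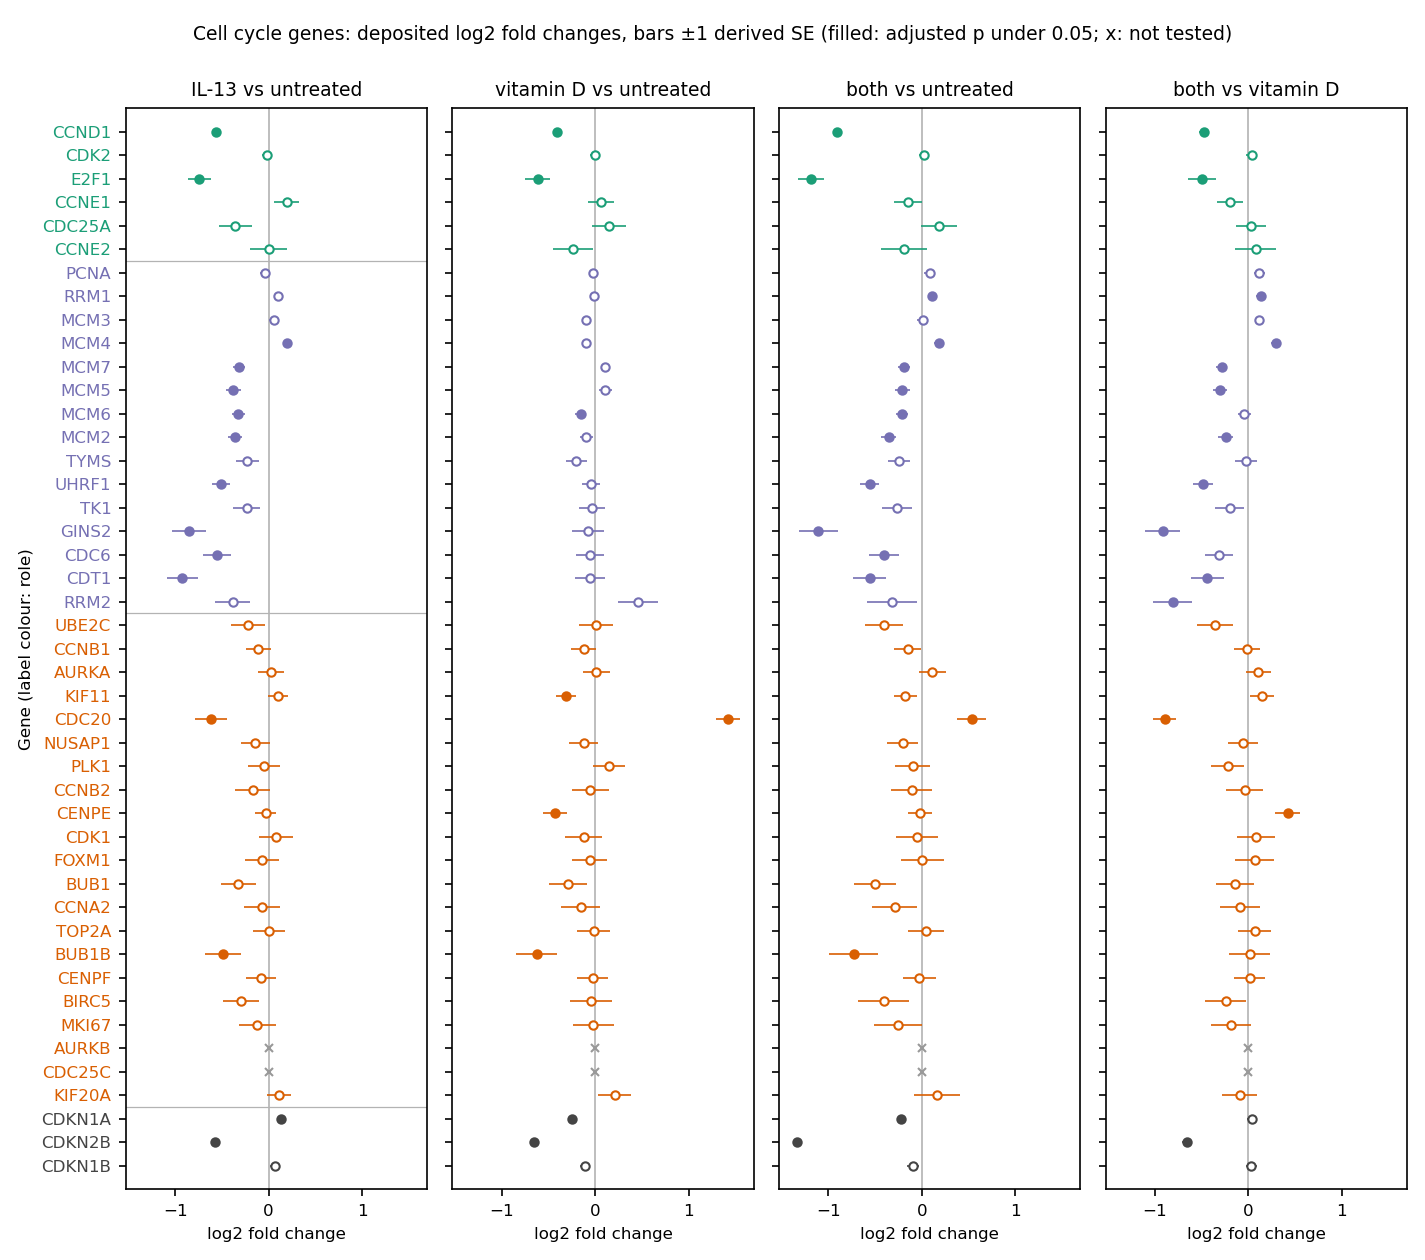
Each panel shows the deposited log2 fold change of each gene in 1 comparison, with bars of 1 derived SE on each side, filled points for adjusted p under 0.05 and crosses at 0 for genes with no test. With IL-13 the filled points are mostly replication genes below 0; with vitamin D, CDC20 stands alone at 1.42 and few replication points are filled.

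Vitamin D alone left the replication genes mostly without a call and raised 1 mitotic gene. It was followed by 8 members called lower and 1 higher of 43. Over all 15177 genes tested, 15.1% were called lower and 17.5% higher, so lower calls were near the background and higher calls below it. The members' median log2 fold change was -0.06, against 0.00 for all genes. Of 15 replication genes, MCM6 alone was called, at -0.16 (SE 0.0585, adjusted p = 0.0274) in the authors' deposited table.

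The gene called higher was CDC20 (hg19 chr1:43824626-43828873, plus strand). It rose from 1.06 RPKM untreated to 3.03 with vitamin D, a log2 fold change of 1.42 (SE 0.131, adjusted p = 4.63e-26) in the authors' deposited table. The other mitosis genes did not follow it: BUB1B (-0.62, adjusted p = 0.0157), the kinesin CENPE (-0.43, adjusted p = 0.00362) and the spindle motor KIF11 (-0.31, adjusted p = 0.0143) were called lower in the authors' deposited table. MKI67 (-0.02), TOP2A (-0.01) and CDK1 (-0.12) were not called in the authors' deposited table.

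CCND1, E2F1 and CDKN2B were lower with vitamin D as they were with IL-13, but both comparisons use the same untreated samples. CCND1 stood at 20.6 RPKM (-0.41, SE 0.0378, adjusted p = 7.49e-26 in the authors' deposited table). E2F1 stood at 0.995 RPKM (-0.62, SE 0.129, adjusted p = 1.18e-05 in the authors' deposited table). CDKN2B (hg19 chr9:22002902-22009312, minus strand), the p15 inhibitor of cyclin D kinases, stood at 25.9 RPKM against 42.8 untreated (-0.66, SE 0.0381, adjusted p = 3.91e-65 in the authors' deposited table). CDKN1A was lower with vitamin D, at 293 RPKM (-0.25, SE 0.0339, adjusted p = 3.8e-12 in the authors' deposited table), and higher with IL-13. CDKN1B was not called (-0.11, adjusted p = 0.101 in the authors' deposited table).

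With both agents, 13 members were called lower and 3 higher against untreated, of 43. Over all 15971 genes tested, 15.7% were called lower and 16% higher. The median over members was -0.19, against 0.00 for all genes. CDKN2B reached 16.8 RPKM, the lowest of its 4 values, with a log2 fold change of -1.34 (SE 0.0441, adjusted p = 2.08e-199) in the authors' deposited table. E2F1 reached 0.690 RPKM (-1.18, SE 0.139, adjusted p = 2.28e-16) and CCND1 15.2 RPKM (-0.90, SE 0.0481, adjusted p = 1.65e-76) in the authors' deposited table. For these 3 genes the value with both agents was below the value with either alone.

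GINS2 stood at 0.511 RPKM with both agents, close to its 0.552 with IL-13 alone (-1.11 against untreated, adjusted p = 7.42e-07 in the authors' deposited table). CDT1 (-0.56), UHRF1 (-0.56), CDC6 (-0.40), MCM2 (-0.36), MCM5 (-0.21), MCM6 (-0.21) and MCM7 (-0.19) were also called lower in the authors' deposited table, and so were BUB1B (-0.73) and CDKN1A (-0.22). The genes called higher were CDC20 (0.53, adjusted p = 0.00326), MCM4 (0.18, adjusted p = 0.000547) and RRM1, the large subunit of ribonucleotide reductase (0.11, adjusted p = 0.0416), in the authors' deposited table. CDC20 stood at 1.58 RPKM with both, between its values with vitamin D alone (3.03) and with IL-13 alone (0.596). MKI67 (-0.25), TOP2A (0.04), CDK1 (-0.05) and CDKN1B (-0.09) were not called in the authors' deposited table.

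Both agents against vitamin D alone gives the IL-13 effect in cells that had vitamin D, from a table that shares no sample with that of IL-13 against untreated. Of 43 members, 11 were called lower and 3 higher. Over all 14859 genes tested, 16.9% were called lower and 16.4% higher. The members' median was -0.06, against 0.00 for all genes, and replication genes had 7 of 15 lower, 2 higher and a median of -0.24. CDC20 went from 3.03 to 1.58 RPKM, a log2 fold change of -0.89 (SE 0.123, adjusted p = 5.51e-12) in the authors' deposited table. GINS2 (-0.92, adjusted p = 9.84e-06), RRM2 (-0.81, adjusted p = 0.000578), CDKN2B (-0.66, adjusted p = 5.9e-41), E2F1 (-0.50, adjusted p = 0.00417) and CCND1 (-0.48, adjusted p = 3.62e-20) were called lower in the authors' deposited table. UHRF1 (-0.49), CDT1 (-0.44), MCM5 (-0.30), MCM7 (-0.29) and MCM2 (-0.24) were also called lower, and MCM4 (0.29), CENPE (0.42) and RRM1 (0.13) higher, in the authors' deposited table. MKI67 (-0.19), TOP2A (0.07), CDK1 (0.08), CDKN1A (0.04) and CDKN1B (0.03) were not called in the authors' deposited table.

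Whether vitamin D changed the response to IL-13 was tested directly, as a z test between the 2 deposited log2 fold changes with Benjamini-Hochberg adjustment over 14739 genes. No member passed, where 2.37% of all genes did (204 higher and 146 lower with vitamin D present). At an unadjusted p under 0.05 there were 4 members and 1561 genes in all. These members were MCM6 (difference 0.28, 95% interval 0.0922 to 0.464), CENPE (0.45, 0.103 to 0.800), CCNE1 (-0.39, -0.763 to -0.0194) and CDT1 (0.48, 0.0150 to 0.952). Their Benjamini-Hochberg adjusted p-values in this z test lay between 0.104 and 0.442. For CDC20 the IL-13 effect was -0.62 without and -0.89 with vitamin D (difference -0.28, 95% interval -0.693 to 0.142). For CDKN2B the difference was -0.09 (-0.217 to 0.0331), for E2F1 0.24 (-0.140 to 0.628) and for GINS2 -0.06 (-0.575 to 0.447). The intervals of E2F1, GINS2 and CDC20 are several times as wide as that of CDKN2B. All intervals are on the scale of the deposited fold changes, which for some low genes were smaller in size than the RPKM ratios.

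**Figure D4:**
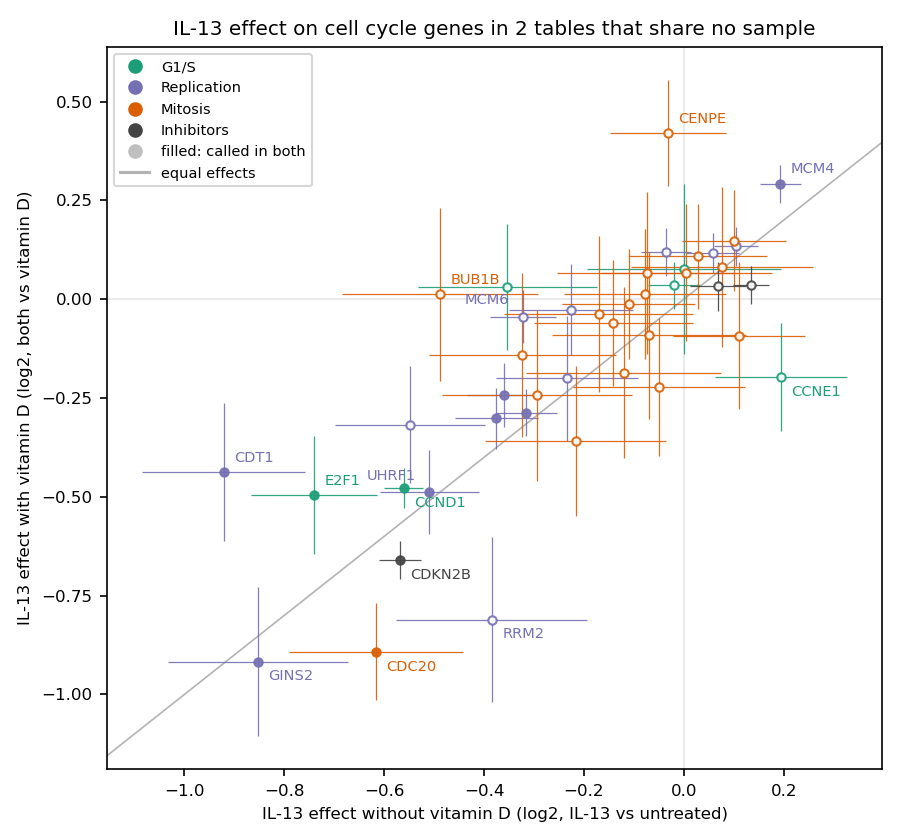
Each point is 1 gene, with its log2 IL-13 effect without vitamin D on the x axis and with vitamin D on the y axis, bars of 1 derived SE, and a line of equal effects. GINS2, CDC20, CDT1, E2F1, CDKN2B, UHRF1 and CCND1 lie below 0 on both axes, and MCM4 lies above 0 on both.

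Other genes of the pathway, 120 of 122 listed names found in the table, had calls in both directions. With IL-13, 10 of 118 tested were called higher and 19 lower, with vitamin D 8 and 29 of 119, with both against untreated 14 and 28 of 119, and with both against vitamin D 17 and 14 of 115. The shares over all genes were 12.3% higher and 14% lower with IL-13, 17.5% and 15.1% with vitamin D, 16% and 15.7% with both against untreated, and 16.4% and 16.9% with both against vitamin D. The genes with the largest log2 change with IL-13 were CDC45, the helicase partner of MCM and GINS (0.89), CENPN, a centromere protein (0.84), and SKP2, which marks p27 for destruction (0.44), called higher in the authors' deposited table. PKMYT1, a kinase that inhibits CDK1 (-0.76), ESPL1, the separase (-0.74), and ORC1, of the origin recognition complex (-0.64), were called lower in the authors' deposited table. CDC45 went from 0.587 to 1.33 RPKM with IL-13 while GINS2 went from 1.29 to 0.552 RPKM, so helicase partners were called in opposite directions.

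With vitamin D the largest changes were those of WEE1, a kinase that inhibits CDK1 (0.92), TACC3, a spindle protein (0.77), and FBXW7, which targets cyclin E for destruction (0.63), called higher in the authors' deposited table. CDC25B, the phosphatase that opposes WEE1 (-0.84), E2F2 (-0.81) and the nuclease EXO1 (-0.59) were called lower in the authors' deposited table. WEE1 stood at 11.9 RPKM untreated and 21.7 with vitamin D, and CDC25B at 13.9 and 7.41, so the kinase was higher and its opponent lower in the same comparison. With both agents against untreated, TACC3 (1.51), CDC45 (1.5) and FBXW7 (0.75) were called higher and CDC25B (-1.40), the inhibitor CDKN1C (-1.19) and ESPL1 (-1.07) lower in the authors' deposited table. With both against vitamin D, CDC45 (1.80), CENPN (1.04) and TACC3 (0.73) were called higher and CDKN1C (-0.77), ESPL1 (-0.70) and the stress gene GADD45B (-0.69) lower in the authors' deposited table.

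The promoters of low genes were marked all the same. H3K4me3, the mark of active or poised promoters, had a peak summit within 1 kb of the hg19 start site of 45 of 45 members in all 4 libraries. That includes the 21 members under 1 RPKM, where 24.3% of all genes under 1 RPKM, and 53.9% of those from 0.1 to under 1 RPKM, had such a peak in untreated cells. Full marking was not particular to the members, as 96.7% of the 120 other pathway genes had such a peak in untreated cells. KIF20A, a kinesin of cell separation at 0.0150 RPKM, had an H3K4me3 fold enrichment of 39.1 in untreated cells, and MKI67 had 32.9, where the median over the members was 39.1 and over all genes with a peak 42.5. BRD8 starts within 1 kb of KIF20A, so that peak cannot be given to 1 gene. No other gene overlaps MKI67 or starts within 1 kb of it. Fold enrichment is the authors' peak height over the background of that library.

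H3K27ac, the acetyl mark of active promoters and enhancers, ranked the roles as H3K4me3 did, with medians relatively further apart. In untreated cells H3K27ac was present at 45 of 45 members (55.8% of all genes and 97.5% of the 120 other pathway genes). Its median fold enrichment was 8.35 at mitosis genes, 13.8 at G1/S genes, 17.9 at replication genes and 21.7 at inhibitors. For H3K4me3 these medians were 33.6, 41.1, 42.5 and 48.0 in the same order. At 1 RPKM or more H3K27ac was present at 24 of 24 members and 91.8% of all genes. Under 1 RPKM it was present at 21 of 21 members and 22.9% of all genes, or 55.4% of those from 0.1 to under 1 RPKM. Across the 45 members, Spearman's rho between untreated RPKM and fold enrichment was 0.72 for H3K27ac and 0.61 for H3K4me3, against 0.49 and 0.49 across all genes with a peak; these are descriptions of 1 library each. KIF20A, with the lowest RNA of all members, stood apart with an H3K27ac fold of 14.2. It lies beside BRD8 and overlaps CDC23, and a peak at a shared promoter cannot be given to 1 gene. Other genes overlap, or start within 1 kb of, CCNE2, CCNA2, MCM4, MCM7, PCNA, TYMS, TK1, UHRF1, AURKA, PLK1, FOXM1, NUSAP1 and CDK2 as well. In the treated libraries H3K27ac peaks were found at 41 members after IL-13, 39 after vitamin D and 41 after both (51.8%, 52.6% and 52.5% of all genes). Of the start sites of all genes with an untreated peak, 7.59%, 6.30% and 6.62% had none in these libraries, against 4, 6 and 4 of the 45 members. The missing ones were all mitosis genes, of which 17, 15 and 17 of 21 had a peak, and the other 24 members had one in every library. The untreated H3K27ac library had 227856 summits and the treated ones 126701 to 145344, and its median peak height at the start sites of all genes was 40 reads, against 18 after IL-13, 23 after vitamin D and 18 after both. The part of this difference in depth in the missing peaks was not tested.

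**Figure D5:**
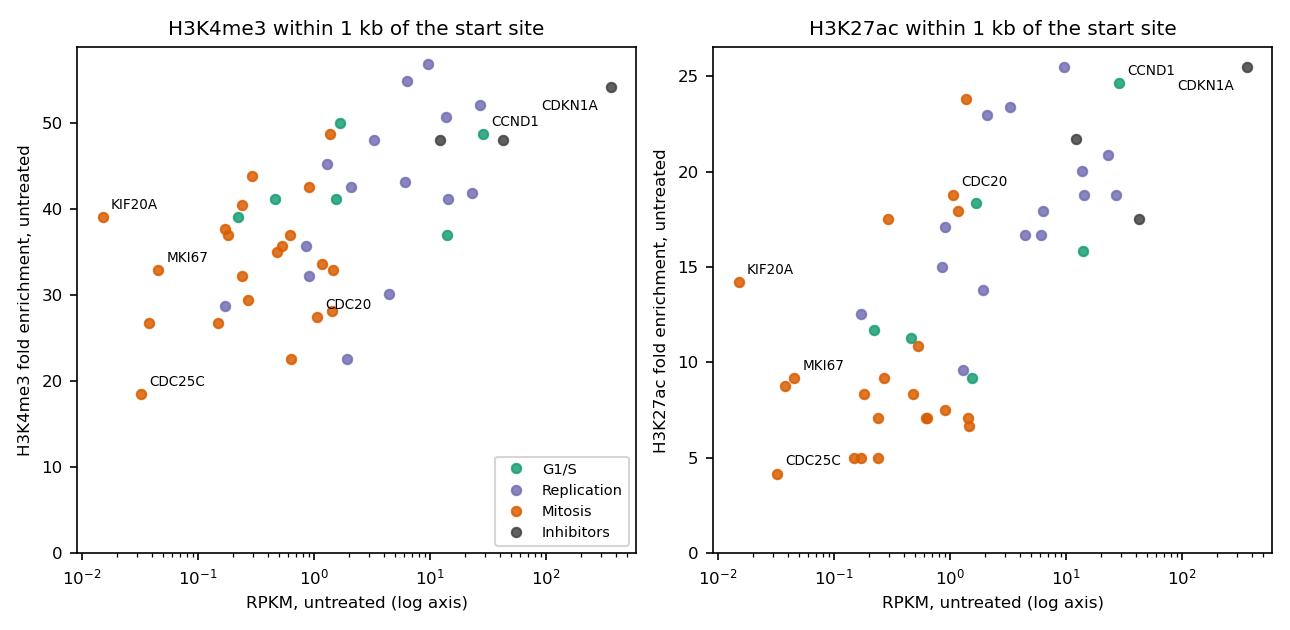
Each point is 1 gene, with untreated RPKM on a log x axis and the fold enrichment of the strongest summit within 1 kb of the start site in untreated cells on the y axis, for H3K4me3 (left) and H3K27ac (right). All 45 genes have both marks; CDC25C is lowest in both panels (18.5 and 4.17), and KIF20A stands above other genes of similar RNA level.

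Changes of the marks at start sites were few, and with 1 library per group they have no replicate check. Ratios to untreated were divided by the median ratio over all start sites, and a ratio of at least 1.5-fold in either direction is counted. For H3K4me3, 0 of 45 members passed in any treatment, where 0.909% of all start sites passed upward and 1.18% downward with IL-13, 1.76% and 0.47% with vitamin D, and 1.27% and 0.726% with both. For H3K27ac, 2 members were higher and 2 lower with IL-13 (background 2.14% and 2.96%), 1 higher and 5 lower with vitamin D (2.14% and 2.18%), and 0 higher and 2 lower with both (2.32% and 2.76%), of 41, 39 and 41 members with a peak in both libraries. The 5 of 39 lower with vitamin D were a larger share than the 2.18% of all start sites, from 1 library per group. Without the scaling, 18, 12 and 25 members were counted in place of 4, 6 and 2.

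CDC6 was past the ratio in every H3K27ac comparison. Its fold enrichment fell from 17.1 in untreated cells to 5.95 after IL-13, 7.51 after vitamin D and 6.39 after both, for scaled ratios of 0.49, 0.55 and 0.52. All 3 treated values lay far below the untreated one. They share that 1 untreated library, and the RNA of CDC6 was called lower with IL-13 and with both but not with vitamin D. CDKN2B had 17.5, 12.6, 8.09 and 8.31 in the same order, for ratios of 1.02, 0.58 and 0.66. Its RNA was called lower in all 3 comparisons, whereas the mark was past the ratio in the 2 with vitamin D.

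The other members past the ratio in H3K27ac were CCNE2 (lower with IL-13, 0.64), RRM2, TK1 and MKI67 (lower with vitamin D, 0.63, 0.52 and 0.63), CCNB2 (higher with vitamin D, 1.53), and BIRC5 and NUSAP1 (higher with IL-13, 2.06 and 1.63). The peak height of BIRC5 was 11 reads untreated and 10 with IL-13, and that of NUSAP1 was 17 and 12, while the median over all genes was 40 and 18. That of MKI67 was 21 reads untreated and 7 with vitamin D, with a median over all genes of 40 and 23. These peaks are low ones, and the ratios depend on the scaling for depth. E2F1 (18.4, 9.92, 13.9 and 11.5 in the order untreated, IL-13, vitamin D, both), CCND1 (24.6, 15.9, 21.4 and 15.3) and CDC20 (18.8, 13.2, 16.8 and 10.2) had scaled ratios between 0.76 and 1.12 and were not past 1.5-fold, although their RNA was called in all these comparisons.

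H3K9ac, a further mark of active promoters, had a summit within 1 kb of the start site at 37 of 45 members in the untreated, IL-13 and vitamin D libraries and at 41 with both, against 49.7% to 50.2% of all genes. In the untreated library the mark was at 23 of 24 members and 87.0% of all genes at 1 RPKM or more. Under 1 RPKM it was at 14 of 21 members and 15.5% of all genes. It was found at all 15 replication, 6 G1/S and 3 inhibitor genes in each library and at 13, 13, 13 and 17 of the 21 mitosis genes. The median peak height over the members with a peak was 8, 8, 8 and 7 reads. With IL-13, TK1 and CDKN1B were at least 1.5-fold higher (background 5.04%) and MCM2 at least 1.5-fold lower (5.67%); CDKN1B (1.5) and MCM2 (0.67, and again 0.67 with vitamin D) lay on that threshold. With vitamin D, CDT1, MCM2, RRM1 and UBE2C were lower (4.98%) and none was higher (5.38%). With both, UHRF1, CCNA2 and KIF11 were higher (5.22%) and none was lower (6.46%). CDT1 had peak heights of 10, 8, 4 and 11 reads in the order untreated, IL-13, vitamin D and both, and MCM2 had 14, 9, 9 and 12. These heights are low, and each is from 1 library.

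STAT6 was assigned to few of these genes. In the untreated library 0 of 45 members had an assigned STAT6 peak, against 0.888% of all genes. In the IL-13 library 1 had one (2.22%, against 9.87% of all genes). It was CDKN1A, with an intergenic peak at hg19 chr6:36612260-36613266, 34.0 kb upstream of the start, with a fold enrichment of 11.1. The strongest H3K27ac summit in a region covering that STAT6 summit had a fold enrichment of 5.84 in untreated cells, 15.2 with IL-13 and 16.0 with both. In the vitamin D library no H3K27ac region covered that position. The strongest summit of a region can lie away from the STAT6 summit. By this measure the 2 libraries with IL-13 were above the untreated one. Of the 13 members called lower with IL-13, 0 had an assigned STAT6 peak. With so few genes, this count cannot be set apart from the 9.87% of all genes. STAT6 letters stood in the promoter windows of 4 of 11 members called lower with IL-13 and of 3 of 25 other members, and this difference was not tested.

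VDR peaks were assigned to 3 members in the untreated library (CDC20, CENPF and PCNA, 6.67%, against 6.45% of all genes) and to 9 in the vitamin D library (20%, against 23.6% of all genes). Counted by position, with peaks assigned to neighbours included, 9 members had a VDR peak within 10 kb of the start with vitamin D (20%, against 11.9% of all genes), among them CDK2, MCM2 and CDKN1B, whose peaks are assigned to other genes. The members with an assigned peak were CCND1, CDC25A, CDC6, PCNA, RRM1, RRM2, CDC20, CENPF and CDKN1A. The strongest was intergenic, 29.1 kb upstream of CENPF (hg19 chr1:214746980-214748568), with a fold enrichment of 31.6 with vitamin D and 11.0 without. CENPF RNA, of a kinetochore protein, was not called with vitamin D (0.170 RPKM untreated and 0.161 with vitamin D). CDC25A, a phosphatase that activates CDK2, had 2 summits of 19.4 and 21.6, 46.4 and 45.8 kb downstream of its start and beyond its end, and its RNA was not called either.

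At CDC20, the member that rose with vitamin D, the VDR peaks were at the promoter and weak. The untreated library had one 345 bases before the hg19 start with a fold of 4.89, and the vitamin D library one 27 bases after it with a fold of 4.16. The promoter peak of PCNA, shared with CDS2, had a fold of 3.58 untreated and 8.08 with vitamin D. At CDKN1A, which fell with vitamin D, peaks 11.3 and 11.1 kb upstream and 3.47 kb downstream in an intron had folds of 5.12, 3.52 and 4.48. RRM2 (2.15 kb upstream), RRM1 (9.11, in an intron) and CDC6 (5.01, 3.54 kb upstream) were not called with vitamin D. CCND1 (4.63 and 5.11, 138 kb upstream) was called lower (-0.41 in the authors' deposited table). The VDR libraries were made with and without vitamin D only, and peak heights in the vitamin D library are scaled values, so the 2 libraries' folds were set side by side without a test.

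The cells carried the markers of their label. All 8 basal epithelial markers were above 0.1 RPKM in every group, with a summed level between 15988.5 and 19059.5 RPKM, while all 4 endothelial, 6 of 8 fibroblast and 4 or 5 of 6 leukocyte markers were under 0.1 RPKM. The fibroblast list summed to 6.04 to 15.4 RPKM, nearly all of it COL1A1, and the leukocyte list to 48.1 to 60.6 RPKM, nearly all of it the lysosomal CD68, while PTPRC was under 0.1 RPKM in every group. CD68 (0.31) and ITGAM (0.73) were called higher with vitamin D in the authors' deposited table. The 6 suprabasal differentiation markers summed to 499.6 RPKM in untreated cells, 247 after IL-13, 727 after vitamin D and 526 after both. Of these, 5 were called lower with IL-13 (median -1.20), and 4 were called higher and 2 lower with vitamin D (median 0.62), in the authors' deposited table. Their part in the changes of the cell cycle genes was not tested. In RNA from whole cultures, fewer dividing cells and less RNA per dividing cell cannot be told apart. The deposited log2 values of some low genes were smaller in size than the ratios of their RPKM: BUB1B, at 0.183 and 0.0940 RPKM, had a deposited -0.49 with IL-13 in the authors' deposited table.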

How the data were processed

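The authors sequenced RNA from 12 samples and chromatin from 16. Per the submitters' processing notes, Trim Galore, STAR, SAMtools, Bowtie and MACS2 were used, with builds GRCh37 and hg19; no source here states their versions. The 4 deposited RNA tables hold 1 RPKM per group and, per the file headers, a log2 fold change, a p-value and an adjusted p-value; they hold no read counts, so no counting interval is given. The table used for both agents against vitamin D is identified by its column headers, which disagree with the pair in its name (IL-13 against both). The deposited peak tables give, for each summit, the pileup signal, the fold enrichment ratio over background and -log10 q. Peaks were called per library and carry the authors' gene assignment.

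An adjusted p of 1 was read as no test. SEs were derived from the deposited log2 fold change and p, so for low genes they share the scale of the deposited values. The 2 IL-13 effects were compared by a z test that assumes independent tables, and 17 genes on which the tables disagreed by over 0.5 were left out. In simulated data the test found 68 of 100 differences of 0.5 and 93 of 100 differences of 1 (log2). The simulated noise was drawn from the derived SEs, independently per table. It therefore cannot check the independence of the tables or the derived SEs. The strongest summit within 1 kb of the start site was used for each mark. Promoter letters came from RefSeq (GRCh38.p14) and were not placed on hg19. Every member was described by role, with full values for called members (the 15 with the largest change where more) and for MKI67, TOP2A, CCND1, E2F1, CDK1, CDKN1A, CDKN1B and CDKN2B, and, of other pathway genes, for the 3 with the largest change in each direction. The members and lists were chosen with earlier results of these data known. Software was Python 3.11.15, pandas 2.3.3, NumPy 2.4.6, SciPy 1.17.1 and matplotlib 3.10.9. Alternatives were other thresholds, pseudocounts of 0.1 and 1, windows, scalings and enlarged SEs.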

Additional observations from a re-analysis of the deposited data

Results flagged for a closer look

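Among the other pathway genes, 4 had an IL-13 effect that differed between cells with and without vitamin D by the z test of the difference (with minus without, log2, Benjamini-Hochberg adjusted over 14739 genes); none of them is among the 45 members. For CDC45 the difference was 0.91 (SE 0.231, adjusted p = 0.00581), with an effect of 0.89 without and 1.80 with vitamin D in the authors' deposited table. For TACC3 it was 0.70 (SE 0.148, adjusted p = 0.000330), with 0.03 and 0.73 in the authors' deposited table. For CCND2 it was 0.24 (SE 0.0614, adjusted p = 0.00777), with 0.01 and 0.25 in the authors' deposited table. For GADD45B it was -0.32 (SE 0.0785, adjusted p = 0.00378), with -0.37 and -0.69 in the authors' deposited table. With SEs enlarged 1.5 times the adjusted p was 0.623 for CDC45, 0.227 for TACC3, 0.694 for CCND2 and 0.544 for GADD45B.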

How the results depend on the processing

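No paired analysis was possible because the tables carry 1 value per group, and for the same reason no sample could be left out. With a log2 change of at least 0.2 required, members called higher were 0 with IL-13 and 1 with both against untreated. At an adjusted p under 0.01, members called lower with vitamin D were 5. With RPKM ratios and a pseudocount of 1, the members' median with both against untreated was -0.089. The other 21 counts of called members stayed within 1.5 times the reported ones, and the other 15 medians over the members moved by less than 0.1. The median of replication genes with both against vitamin D, reported as -0.24, was -0.14 with a pseudocount of 1 and -0.12 over genes of at least 1 RPKM. The genes called for a difference between the IL-13 effects were 221 at an adjusted p under 0.01 and 52 with SEs enlarged 1.5 times, where 350 were reported; members called stayed at 0 in these and with the disagreeing genes kept.

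With -log10 q of 10 or more, H3K9ac peaks were left at 6 members in the untreated, 3 in the IL-13, 1 in the vitamin D and 6 in the combined library, and H3K27ac peaks at 24 with IL-13 and 22 with both. Members past the ratio in H3K9ac were 0, 1 and 0 at 2-fold for IL-13, vitamin D and both, and 5 with IL-13 and 5 with both by pileup. In H3K27ac they were 2, 0 and 0 at 2-fold, 18, 12 and 25 without scaling, 7 with IL-13 and 4 with both by pileup, and 1 with both within 5 kb. Members with an assigned STAT6 peak within 10 kb were 0, and those with a VDR peak of -log10 q 10 or more were 1 untreated and 5 with vitamin D. The cause of these shifts was not tested. Peak heights of few reads limit H3K9ac, and levels under 1 RPKM limit the mitosis genes.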
